A study of Mus musculus with 22 samples.

Results

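Full-length mouse DUX was compared with a DUX derivative named deltC12345+14, which lacks the repeats C1 to C5 and keeps the 14-residue tail. The comparison rests on 4 of the 22 samples of the series, 2 libraries of each construct, assigned by their labels. It asks what the repeats add when the tail is present. Both constructs were fused to mCherry, a red fluorescent protein, and were expressed from a doxycycline-inducible transgene in mouse embryonic stem cells whose endogenous Dux genes are knocked out (Dux-/-). Cells were kept in 2iLIF, the medium with inhibitors of MEK and GSK3 and the cytokine LIF that holds stem cells in the naive state, and recovered for 24 hours after plating. Doxycycline at 0.25 ug/mL was then given for 12 hours, and 500 ng of total RNA per sample went into stranded libraries of polyadenylated RNA. A second pair of constructs, C12345delt14 (repeats, no tail) and deltC12345delt14 (neither), received the same treatment in the same cells and completes a layout of repeats by tail. The label FL Dux is used below for the full-length construct.

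DUX is a transcription factor with a pair of DNA-binding homeodomains near its start. In the early mouse embryo it is made around the time when the embryo's own genome is first switched on, and in embryonic stem cells its expression turns on many genes of the 2-cell stage, such as the Zscan4 cluster, together with retroviral long terminal repeats. Its C-terminal part recruits transcriptional coactivators and is needed for that activity. The C-terminal part of mouse DUX holds a series of repeats, and the constructs compared here differ in them.

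The repeats can be seen in the reference gene. Duxf3 lies on mouse chromosome 10 (GRCm38, GENCODE M21, minus strand, 58229979 to 58232675), and its coding transcript there is 2025 bases long in 1 exon, with 674 codons before the stop. A search for a 30-base stretch that recurs in the later part of this transcript found 5 copies, spaced 273 or 276 bases apart. They are shown because the deleted part is named for 5 repeats. Capitals mark the 25 bases that are the same in all 5 copies, and each line gives the sense strand 5′ to 3′.

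copy 1, codons 236 to 245, chr10:58231941-58231970: CAAGTGGCACAGCCCcgTGGAgCaGGCcAA
copy 2, codons 327 to 336, chr10:58231668-58231697: CAAGTGGCACAGCCCtgTGGAtCgGGCcAA
copy 3, codons 419 to 428, chr10:58231392-58231421: CAAGTGGCACAGCCCtcTGGAcCaGGCcAA
copy 4, codons 510 to 519, chr10:58231119-58231148: CAAGTGGCACAGCCCtgTGGAtCgGGCcAA
copy 5, codons 602 to 611, chr10:58230843-58230872: CAAGTGGCACAGCCCtcTGGAcCaGGCaAA

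The stretches from each copy to the next were compared base by base without gaps. Those after copies 2 and 4, each 276 bases long, were 99.3% identical. Those after copies 1 and 3, each 273 bases long, were 86.4% identical. Those after copies 2 and 3 differ in length and were 42.1% identical, a value that comparing without gaps may lower. The last 14 codons before the stop (codons 661 to 674, chr10:58230654-58230695) read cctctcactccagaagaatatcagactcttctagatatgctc. Where C1 to C5 begin and end in the constructs, and the sequence of the transgene itself, are not given in the sources used here.

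Totals were 32168300 and 31391063 reads in FL Dux and 32812102 and 30568702 reads in deltC12345+14. Values below are normalised reads, meaning reads divided by the authors' size factor for the library, unless they are called reads. The endogenous gene Duxf3 had 0 reads in all 8 libraries of the deletion constructs, and so did its neighbour Gm4981. The transgene has no row of its own among the files used here, so the level of each construct's own RNA was not measured. The libraries also differ in a way that does not follow the constructs: genes of highly repeated sequence took 2.07% and 1.91% of reads in the FL Dux replicates and 2.29% in deltC12345+14 replicate 1, against 0.387% in deltC12345+14 replicate 2. Leading results are therefore also given without that library. Nothing in the labels says whether replicates came from separate cultures, so p-values measure only the spread between these libraries.

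Of 19833 genes tested, 3966 (20.0%) were higher and 3650 (18.4%) were lower in FL Dux than in deltC12345+14. Together these 7616 genes are 38.4% of those tested, by limma with Benjamini-Hochberg adjusted p under 0.05 and a difference of at least 1 on the log2 scale. Without deltC12345+14 replicate 2 the counts were 3246 higher (16.4%) and 2682 lower (13.5%). The higher genes reached much larger folds than the lower ones: 245 of the 3966 higher genes were fitted at 1024-fold or more, and 728 between 32-fold and 1024-fold, while 33 of the 3650 lower genes passed 32-fold. Of the 245, 217 had at most 3 reads in both deltC12345+14 libraries, and 203 share at least 10% of their sequence, cut into 50-base words, with another gene. Among the 13689 genes that share less than 10%, 1890 (13.8%) were higher and 3016 (22.0%) lower. Among 14736 protein-coding genes, 2031 (13.8%) were higher and 3072 (20.8%) lower.

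The direction of moderate changes moved with the scaling. The genes called higher took 66.6% and 59.7% of all reads in the FL Dux libraries and 25.1% and 25.4% in the deltC12345+14 libraries. With the authors' size factors 1 read is worth 1.81 and 1.49 normalised reads in FL Dux and 0.701 and 0.718 in deltC12345+14. The median difference over all genes was 0.08 (log2) with the authors' size factors, -0.23 after quantile normalization and -1.11 in RPM, which is reads divided by the library total. In RPM 1960 genes (9.88%) were higher and 9712 (49.0%) lower, and after quantile normalization 2788 (14.1%) were higher and 4863 (24.5%) lower. Each gene named below whose sign changed between these scalings is given with both values. In bulk RNA, fewer cells that express a gene and less RNA per cell cannot be told apart.

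**Figure D1:**
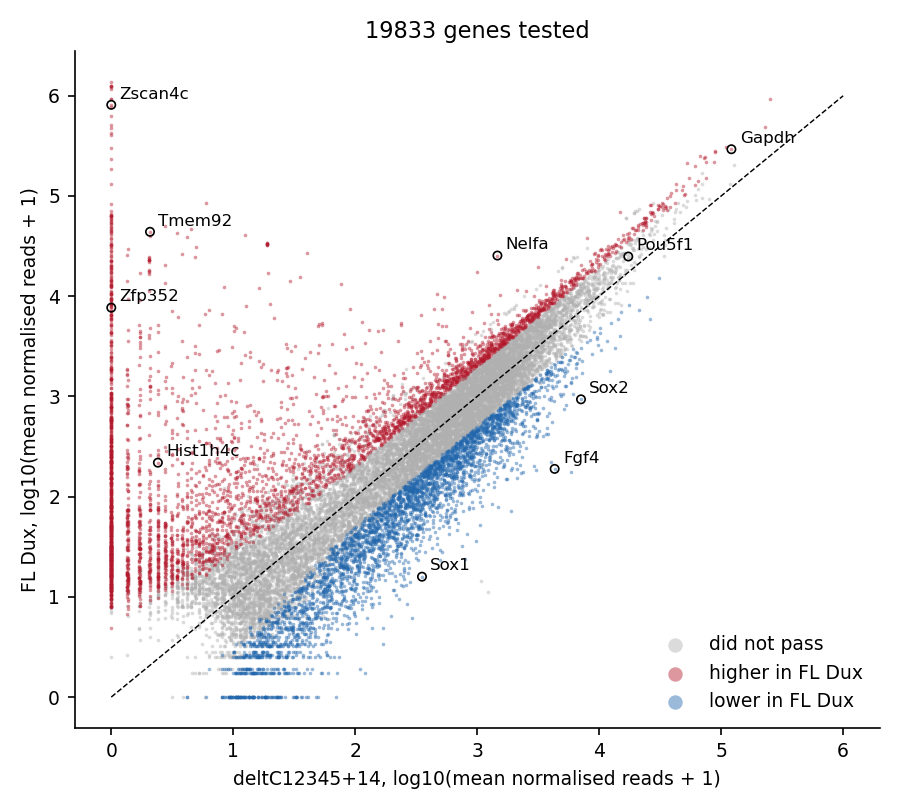
Each point is 1 of the 19833 genes tested, placed by its mean over the 2 libraries of deltC12345+14 (horizontal) and of FL Dux (vertical), as log10(normalised reads + 1). Red and blue points passed the test as higher or lower in FL Dux, the dashed line marks equal values, and the column of points at 0 on the horizontal axis holds genes with no reads in deltC12345+14, among them Zscan4c and Zfp352.

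The genes of the 2-cell embryo gave the largest difference. Of 48 list members tested, 43 were higher in FL Dux and 3 lower, where 20.0% and 18.4% of all genes were. The median difference was 12.51 (log2) against 0.08 over all genes. With genes at 0 reads set to a floor of 3 reads per library, the median was 11.88. In deltC12345+14, 29 of the 48 had 0 reads in both libraries and 32 had at most 3 reads in each. All 48 had values that did not overlap between the constructs, as did 78.5% of all genes tested. In RPM 41 were higher and 4 lower, and without deltC12345+14 replicate 2, 42 were higher and 1 lower. Because 36 of the 48 share sequence with another gene, the 12 that share under 10% were also counted, and 8 of these were higher and 2 lower (6 and 3 in RPM). Over all genes, 9.88% were higher and 49.0% lower in RPM.

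All 6 Zscan4 genes on chromosome 7 (Zscan4a is annotated as a pseudogene), which code for zinc finger proteins that mark the 2-cell state and act on telomeres, were higher. Zscan4c (7:11005745-11010547) had 575540 and 390885 reads in FL Dux and 0 and 0 reads in deltC12345+14. That is at least 381555-fold higher than a floor of 3 reads per library. The lowest of the 6 by this bound, Zscan4d, had 290940 and 188275 reads in FL Dux and again 0 and 0 in deltC12345+14. Every FL Dux library was far above both deltC12345+14 libraries. Counted with related pseudogenes, 9 Zscan4 genes took 11.4% and 7.97% of all FL Dux reads. Reads of these near-identical genes may be split among them, so their order is uncertain.

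The Tcstv genes, a small family on chromosome 13 that is expressed at the 2-cell stage, were higher in all 4 cases. Tcstv3 (13:120316878-120318178) had 30990 and 12443 reads in FL Dux, where replicate 1 was the higher, and 0 reads in both deltC12345+14 libraries. It was at least 17537-fold higher. AF067061 was at least 27252-fold higher.

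All 5 Usp17-like deubiquitinases, enzymes that remove ubiquitin from proteins, were also higher. Usp17lc (7:103415072-103419880) had 14797 and 12935 reads in FL Dux and 0 and 0 in deltC12345+14, at least 10819-fold higher. Usp17la was the family member with some reads in deltC12345+14, at 0 and 3, against 25634 and 22916 in FL Dux.

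Copies of the translation initiation factor Eif1a on chromosome 12 showed low but present reads in deltC12345+14. All 6 were higher in FL Dux, and 1 of them, Gm5662, had 0 reads in both deltC12345+14 libraries. Gm8300 had 20471 and 20432 normalised reads in FL Dux and 2.81 and 0.718 in deltC12345+14, a difference of 12.97 ± 0.37 (SE, adjusted p = 1.29e-07). The FL Dux values of Gm8300 lay closer together than those of the Zscan4 genes.

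The Tdpoz genes, which code for proteins with TRAF and BTB domains, were higher in all 5 cases and had 0 reads in every deltC12345+14 library. Tdpoz4 had 1069 and 700 reads in FL Dux, at least 700-fold higher. Tdpoz2 was the least abundant, with 39 and 29 reads, and its bound was 26.7-fold.

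The 5 Obox homeobox genes on chromosome 7, of which some are made by the oocyte and some at genome activation, were all higher. Obox3 had 254 and 468 normalised reads in FL Dux and none in deltC12345+14, at least 169-fold higher. Obox6 was the exception in that deltC12345+14 already held reads of it. Its values were 136 and 171 in FL Dux and 61.7 and 58.9 in deltC12345+14, a difference of 1.33 ± 0.29 (adjusted p = 0.00694) that shrank to 0.12 in RPM (adjusted p = 0.773).

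Pramel and Pramef genes, members of a large family of leucine-rich repeat proteins of germ cells and early embryos, split. Of 6 tested, 4 were higher and 1 lower. Pramef25 (4:143948580-143951016) had 34223 and 38724 reads in FL Dux and 0 and 0 in deltC12345+14, at least 28101-fold higher. Pramel6 was at 696 and 479 normalised reads in FL Dux and 94.7 and 52.4 in deltC12345+14, a difference of 3.02 ± 0.52 (adjusted p = 0.00235). Pramel7 passed with all libraries (2.95 ± 0.85, adjusted p = 0.0204) and not without either FL Dux replicate (adjusted p = 0.104 and 0.0703) or without deltC12345+14 replicate 2 (0.0909). Pramef12 was the lower one, at 614 and 1082 against 1665 and 1910 (adjusted p = 0.0205), and it did not pass without FL Dux replicate 1 (0.139) or without deltC12345+14 replicate 2 (0.0916).

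Among the remaining 2-cell genes 8 of 11 were higher and 2 lower. Zfp352 (4:90218820-90225702), a zinc finger gene that is a common marker of 2-cell-like cells, had 5283 and 3893 reads in FL Dux and 0 and 0 in deltC12345+14, at least 3609-fold higher. Tmem92 (11:94777217-94782703), a membrane protein gene, had 27587 and 25400 reads in FL Dux and 0 and 3 in deltC12345+14. This is a ratio of 40683 with a 95% exact counting interval of 13920 to 197282. Ubtfl1, a relative of the ribosomal RNA transcription factor UBTF that is needed before implantation, had 1357 and 1596 reads against 0 and 0. Sp110, a nuclear body protein gene, had 4249 and 3242 reads against 1 and 6 (10.99 ± 0.70, adjusted p = 1.5e-05), and the arginase gene Arg2 had 93 and 226 against 4 and 0. The member of this group that did not pass was Rnf167, at 0.47 (-0.75 in RPM). Of the Pramel and Pramef genes above, Pramef8 did not pass, at 0.18. It was at -1.04 in RPM, where it was among the 4 members of the whole 2-cell list that passed as lower.

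Nelfa (5:33897916-33936413), a subunit of the complex that pauses RNA polymerase II, was already present in deltC12345+14. It had 29293 and 21596 normalised reads in FL Dux (25445 ± 5442, SD, n = 2) and 1473 and 1454 in deltC12345+14 (1464 ± 12.9). The difference of 4.10 ± 0.16 is 17.2-fold (adjusted p = 8.04e-07). Duxbl1, a DUX relative that is kept in the genome in several near-identical copies, had 2763 and 2516 normalised reads in FL Dux and 4.91 and 3.59 in deltC12345+14. Duxbl2 and Duxbl3 share almost all of their sequence with Duxbl1 and had the same pattern, at 2906 and 2868 against 6.71 and 6.36 on average.

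The lower members of this group were weakly expressed. The homeobox gene Cphx1 had 0 and 1 reads in FL Dux and 19 and 11 in deltC12345+14, and its call was lost without FL Dux replicate 1 (adjusted p = 0.0622) or without deltC12345+14 replicate 1 (0.0775), and with DESeq2 (0.116). Zfp750 was at 25.4 and 37.2 normalised reads against 58.2 and 215, and it passed with all libraries (adjusted p = 0.0308) but not without FL Dux replicate 1 (0.152), FL Dux replicate 2 (0.0649) or deltC12345+14 replicate 2 (0.17).

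**Figure D2:**
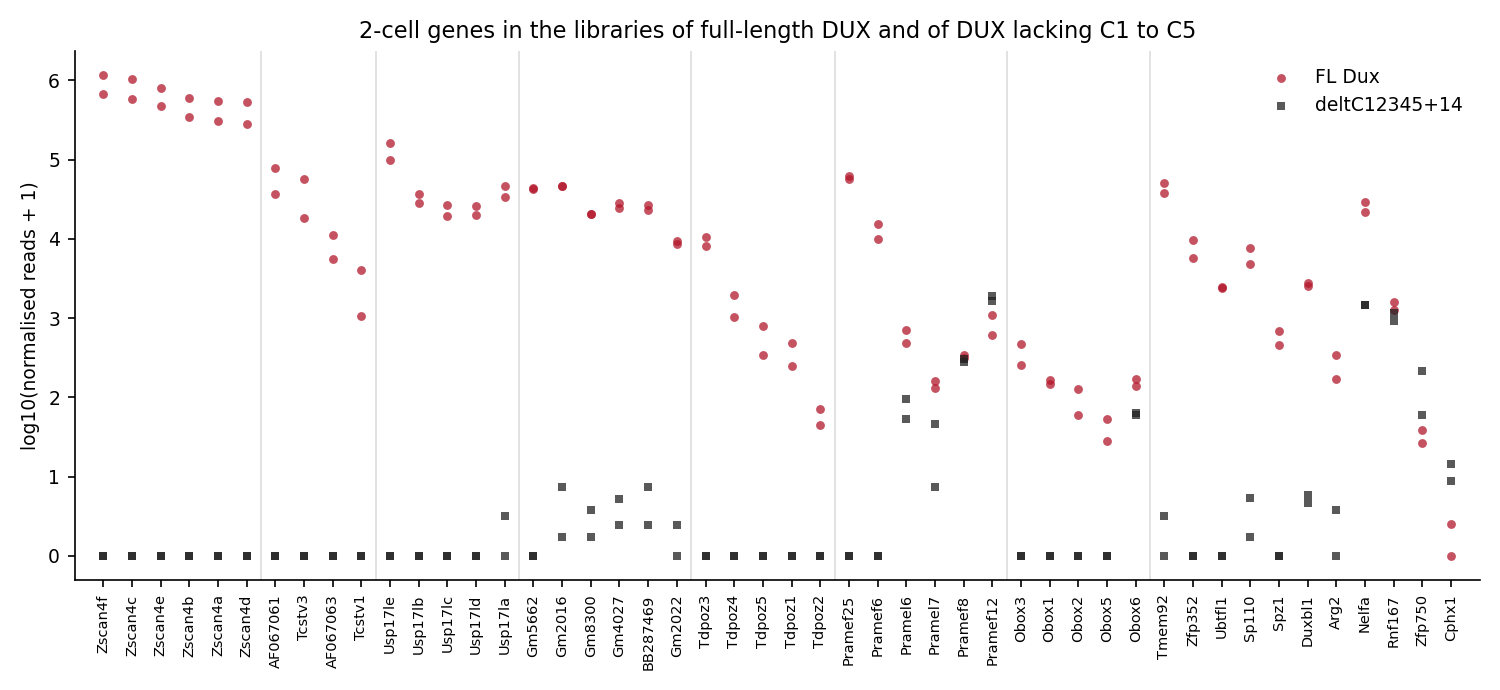
Every 2-cell list member tested is shown along the horizontal axis, grouped by family, with log10(normalised reads + 1) in each of the 2 FL Dux libraries (red circles) and the 2 deltC12345+14 libraries (black squares). Black squares lie at 0 in both libraries for 29 of the 48 genes, while Nelfa, Obox6 and Pramef12 have reads in both constructs.

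The 2-cell genes of deltC12345+14 were also set beside the cells that expressed mCherry alone, by reads only, since the authors scaled those libraries in another table. Of the 48 genes, 34 had at most 3 reads in both mCherry libraries, 34 in deltC12345delt14 and 32 in deltC12345+14, against 1 in FL Dux. All 48 together took 0.0201% and 0.0236% of reads in deltC12345+14, 0.0294% and 0.0287% in mCherry, and 9.45% and 6.93% in FL Dux. Most of the 9176 and 6880 mCherry reads came from Pramef12 (3166 and 2392), Nelfa (2053 and 1542), Rnf167 (1960 and 1505) and Pramef8 (1574 and 1111). In deltC12345+14 these genes averaged 1787, 1464, 1033 and 290 normalised reads. There 1 read is worth 0.701 and 0.718 normalised reads, so these averages are not on the scale of the mCherry reads. The small shares in deltC12345+14 and in mCherry largely reflect such members. These values are descriptions, with no test between tables.

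By the naming rule, the largest folds upward were in 10 genes with symbols. They were the 6 Zscan4 genes, Usp17le, BC080695, Pramef25 and AF067061. All of them except BC080695 are members of the lists above. BC080695, a further Prame-like gene on chromosome 4, had 38458 and 42464 reads against 0 and 0. With unnamed gene models included, the top 3 were Gm21293, Gm20765 and Gm21312, which lie within a single array on chromosome 10 (from 104142987 to 104188000) and share 98.4% to 100% of their sequence. Gm21293 had 1014275 and 629171 reads in FL Dux and 0 and 0 in deltC12345+14. The 7 genes counted in that array together took 19.2% and 12.3% of all FL Dux reads.

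Some genes of little shared sequence were also at or near 0 reads in deltC12345+14 and abundant in FL Dux. The protein-coding genes with the largest folds among those sharing under 10% of their sequence, a group chosen after its values were seen, include Drd3 and Chrm3, receptors for dopamine and acetylcholine, Ccl3, a chemokine, and Trim75. Chrm3 had 1917 and 1293 reads in FL Dux and 0 and 0 in deltC12345+14, at least 1268-fold higher. Ccl3 had 1297 and 909 reads against 0 and 0, at least 869.7-fold higher. Drd3 had 2519 and 3128 reads against 0 and 1, a ratio of 13007 with a 95% exact counting interval of 2334 to 513844.

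Replication-dependent histone genes, whose messages normally end in a stem-loop instead of a poly(A) tail, were the second list with a median above 1. The members tested were all Hist1 genes. Hist2h2ac, with 1 and 2 reads in FL Dux, and Hist2h3c1, with 0 and 0, were below the test's filter. Both had 0 reads in the deltC12345+14 libraries. Over all genes tested, 20.0% were higher, and 9.88% in RPM. All 10 members tested were higher, with a median of 4.80 (log2), 8 of them in RPM and 8 without deltC12345+14 replicate 2, and 5 of the 10 share sequence with another gene. The libraries hold polyadenylated RNA, so the values count polyadenylated or otherwise captured histone transcripts. Hist1h3a (13:23761853-23762386), a histone H3 gene, had 689 and 597 normalised reads in FL Dux and 9.12 and 10.1 in deltC12345+14, a difference of 5.92 ± 0.38 (adjusted p = 1.54e-05). The H4 gene Hist1h4c had 257 and 177 against 2.10 and 0.718, the largest difference of the list at 6.54 ± 0.56. The linker histone genes Hist1h1a (288 and 197 against 7.71 and 5.03) and Hist1h1c (564 and 417 against 85.6 and 102) differed by 5.04 and 2.36.

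Pluripotency genes moved the other way. Of 24 members, 14 were lower and 1 was higher in FL Dux, where 18.4% and 20.0% of all genes were. The median was -1.48 against 0.08 over all genes. In RPM 18 were lower and none higher, where 49.0% and 9.88% of all genes were. Without deltC12345+14 replicate 2, 13 were lower and 1 higher. Most of the difference lay in the factors of the naive state, of which 12 of 15 were lower and none higher. Of the 5 core factors, 2 were lower.

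Sox2 (3:34650405-34652461), which binds DNA together with OCT4, had 569 and 1300 normalised reads in FL Dux (934 ± 517, SD, n = 2) and 8424 and 5761 in deltC12345+14 (7092 ± 1883). The difference was -3.02 ± 0.44 (adjusted p = 0.00124). Nanog was at 5645 and 8821 against 23186 and 18841, a difference of -1.57 ± 0.28 (adjusted p = 0.00265). Both factors had higher values in FL Dux replicate 2 than in replicate 1, and neither overlapped between constructs. Pou5f1, the gene for OCT4, did not pass the 2-fold limit: its values were 23748 and 26037 against 18753 and 15886, a difference of 0.53 ± 0.15 (adjusted p = 0.0196) that turned to -0.69 in both RPM and quantile-normalised values.

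The naive factors named here were lower in both FL Dux libraries than in either deltC12345+14 library. Fgf4 (7:144847367-144865243), a growth factor made by naive cells, had 56.2 and 320 normalised reads in FL Dux and 4812 and 3812 in deltC12345+14 (-4.98 ± 0.78, adjusted p = 0.00157). Tbx3 had 223 and 613 against 3646 and 3749, and Klf4 had 339 and 920 against 4060 and 3473. The nuclear receptor gene Esrrb had 2499 and 3591 against 13963 and 13061, Klf2 had 939 and 1081 against 5174 and 4576, and Zfp42, which codes for REX1, had 2814 and 3758 against 11808 and 7863. These 5 genes differed by -3.32, -2.75, -2.17, -2.27 and -1.57, and FL Dux replicate 1 was below replicate 2 in each.

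Of the 4 Dppa genes on the list, which are active in naive and early embryonic cells, 1 was higher and none lower. Over all genes, 20.0% were higher and 18.4% lower. In RPM none of the 4 was higher and 1 was lower. Dppa2, an upstream regulator of Dux and of 2-cell genes, was higher at 8082 and 5140 against 1550 and 1417, a difference of 2.12 ± 0.21 (adjusted p = 0.000192) that was 0.90 in RPM. Dppa3, a maternal factor that protects DNA methylation, was at 1435 in FL Dux replicate 1 and 99.8 in replicate 2, against 51.9 and 65.4. It did not pass with all libraries (adjusted p = 0.0555) and passed without FL Dux replicate 2 (0.000722).

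**Figure D3:**
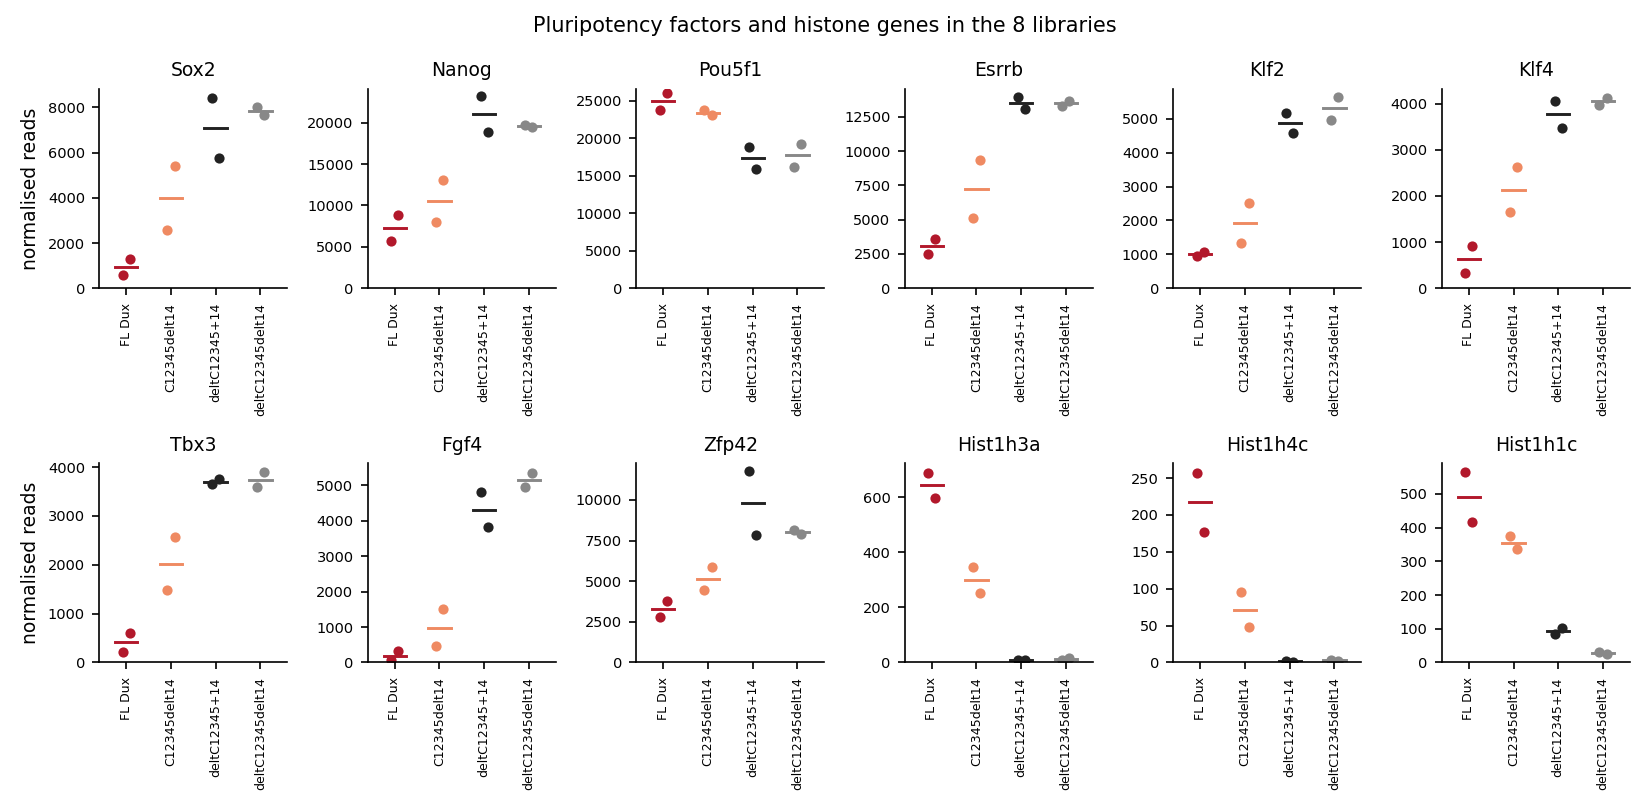
Each panel shows 1 gene, with normalised reads in the 2 libraries of each construct as points and their mean as a line, and every axis starts at 0. The naive factors are low in FL Dux and high in deltC12345+14 and deltC12345delt14, the histone genes show the reverse, and C12345delt14 lies between FL Dux and deltC12345+14 for most of the genes shown.

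Of 18 regulators that hold the 2-cell state silent, 3 were lower and 1 higher, where 18.4% and 20.0% of all genes were. In RPM 10 were lower and none higher, where 49.0% and 9.88% of all genes were, with a median of -1.04 against -1.11 over all genes. The chromatin assembly factor subunit Chaf1a was at 620 and 852 normalised reads in FL Dux against 1659 and 2075 (-1.35 ± 0.26, adjusted p = 0.0039). Max, the partner of MYC, was at 574 and 727 against 1364 and 1796 (-1.28 ± 0.24). Rif1, a telomere and replication-timing protein, differed by -1.01 ± 0.31 (adjusted p = 0.026), and its call was lost when any 1 of the 4 libraries was left out (adjusted p from 0.0626 to 0.106). Trim28 was higher with the authors' scaling (79430 and 72903 against 35075 and 33545, 1.15 ± 0.16) and slightly lower in quantile-normalised values (-0.24) and in RPM (-0.07).

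Markers of other lineages were mostly lower or did not pass, where 18.4% of all genes were lower and 20.0% higher. In the trophectoderm list, 7 of 13 tested were lower and 1 higher, and Cdx2, Elf5 and Hand1, which define that lineage, were below the test's filter with at most 11 reads in any of the 4 libraries. Tfap2c, a transcription factor shared by naive and trophectoderm cells, was at 103 and 198 against 1650 and 1855 (-3.60 ± 0.46, adjusted p = 0.000723). The gap junction gene Gjb5 was at 9.06 and 53.6 against 743 and 763, and the tight junction gene Cldn4 at 74.3 and 121 against 1020 and 1075. Krt8, a keratin of simple epithelia, was the higher one (578 and 448 against 224 and 244, adjusted p = 0.00857), did not pass without FL Dux replicate 1 (0.0554), and reversed to -0.09 in RPM.

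None of the 13 primitive endoderm genes tested passed in either direction, with a median of 0.22, while 5 were lower in RPM and 2 after quantile normalization. Over all genes, 49.0% were lower in RPM and 24.5% after quantile normalization. Among 9 primed epiblast genes 4 were lower and 1 higher, against 18.4% and 20.0% of all genes. Nodal, the growth factor that supports the primed state, was at 52.6 and 104 normalised reads against 1249 and 1697 (-4.28 ± 0.40, adjusted p = 0.000147). Otx2 had 0 and 12 reads against 259 and 180, and Zic2 54.4 and 52.1 normalised reads against 424 and 304. Sox3 was higher, at 605 and 524 against 135 and 89.1 (2.35 ± 0.34). Of 6 fibroblast genes tested 1 was higher (Acta2, 2.42) and 1 lower (Loxl1, -2.04), near the 20.0% and 18.4% over all genes. Neither passed without FL Dux replicate 1 (adjusted p = 0.168 and 0.188) or without deltC12345+14 replicate 1 (0.153 and 0.173). Of 6 neural genes 1 was lower, near the 18.4% over all genes. That gene was Sox1, which had 0 and 20 reads in FL Dux and 666 and 329 in deltC12345+14.

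**Figure D4:**
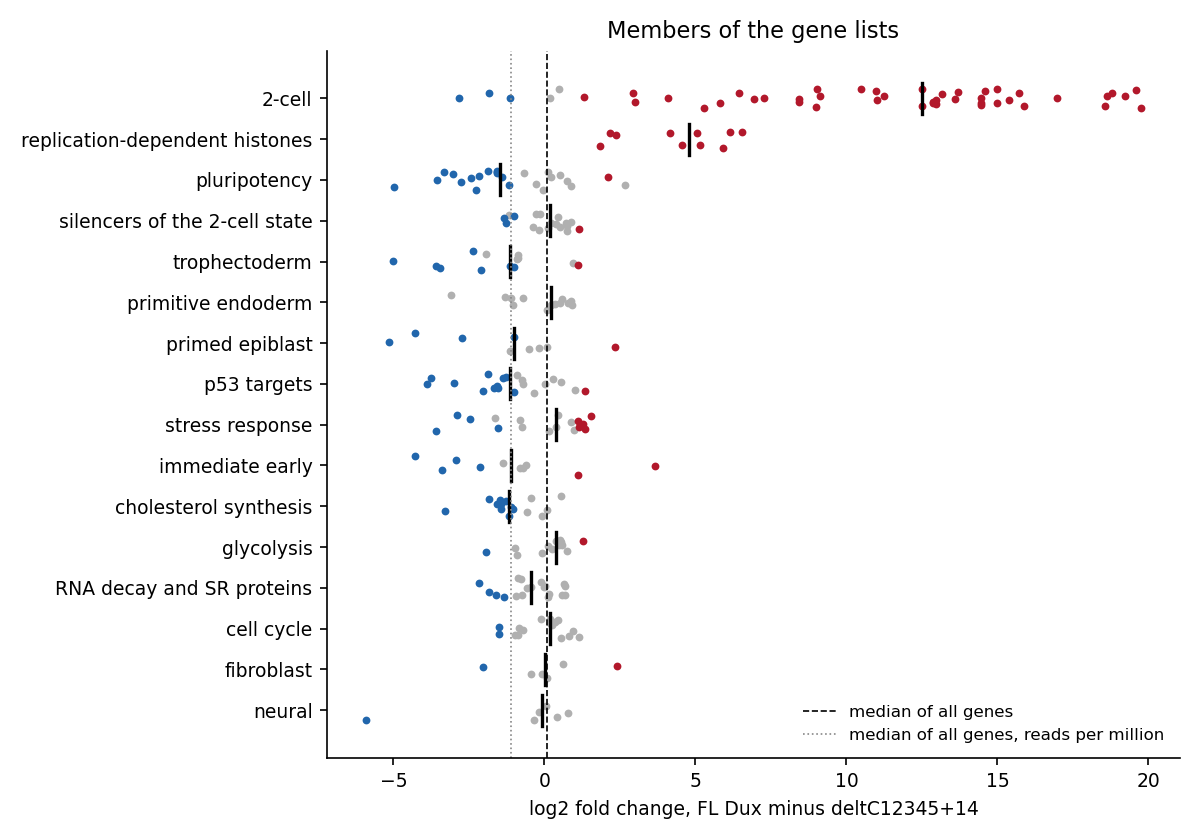
The members of each gene list are placed by their log2 fold change, FL Dux minus deltC12345+14, with red for genes that passed as higher, blue for lower and grey for neither, and a black bar at the list's median. The dashed line is the median of all genes with the authors' scaling (0.08) and the dotted line the median in RPM (-1.11), and only the 2-cell and histone medians lie above 1.

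Targets of p53, the transcription factor of the DNA damage response, were mostly lower: 11 of 20 fell and 1 rose, where 18.4% of all genes tested were lower. Without deltC12345+14 replicate 2, 9 fell and 2 rose. Cdkn1a (17:29090976-29100727), which codes for the cell cycle inhibitor p21, was at 303 and 494 normalised reads in FL Dux and 2699 and 3536 in deltC12345+14 (-2.99 ± 0.25, adjusted p = 7.58e-05). The p53 relative Trp73 (14.5 and 17.9 against 169 and 373) and Bbc3, which codes for the cell death protein PUMA (23.6 and 95.3 against 541 and 795), differed by -3.88 and -3.76. Pmaip1, which codes for the cell death protein NOXA, was higher at 942 and 1191 against 372 and 476 (1.33 ± 0.26), with 0.12 in RPM. Mdm2, the p53 ubiquitin ligase, did not reach 2-fold (-0.74 ± 0.19).

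Of 10 genes of the integrated stress response, which slows translation and induces ATF4, 4 were lower and 2 higher. Over all genes tested, 18.4% were lower and 20.0% higher. Atf4 itself (15:80255184-80257541) was at 1031 and 1096 against 7548 and 4563 (-2.46 ± 0.27, adjusted p = 0.000351). Its targets Trib3 (48.9 and 127 against 1473 and 633) and Ddit3 (74.3 and 131 against 953 and 566) were lower too. Ppp1r15a, which codes for the GADD34 subunit that restores translation, was higher at 1995 and 1864 against 708 and 631 (1.53 ± 0.14, 0.31 in RPM). Asns, asparagine synthetase, was higher with the authors' scaling (1.15 ± 0.19) and at -0.07 after quantile normalization and -0.06 in RPM. Of 7 heat shock genes 3 were higher and none lower. In RPM none was higher and 2 were lower, where 9.88% and 49.0% of all genes were. Hspa8, at 209485 and 225495 against 77841 and 95787, changed from 1.33 to 0.12 in RPM and to -1.07 after quantile normalization.

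Of 10 immediate early genes, which respond within minutes to growth factors, 4 were lower and 2 higher, where 18.4% and 20.0% of all genes were. In RPM 8 were lower and 1 higher, where 49.0% and 9.88% of all genes were. Junb was at 12.7 and 13.4 normalised reads against 217 and 346 (-4.29 ± 0.31, adjusted p = 3.15e-05) and Ier2 at 143 and 243 against 1414 and 1410. Egr1 was higher, at 67.0 and 90.8 against 4.21 and 6.46 (3.66 ± 0.77, adjusted p = 0.00545).

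Cholesterol synthesis genes were lower in 10 of 15 cases (9 without deltC12345+14 replicate 2), and none was higher. Over all genes tested, 18.4% were lower and 20.0% higher. In RPM 14 of the 15 were lower, where 49.0% of all genes were. Insig1, which holds the pathway's regulator in check, was at 593 and 931 normalised reads against 2851 and 2446 (-1.83 ± 0.28, adjusted p = 0.00142). Sqle, squalene epoxidase, was at 962 and 1074 against 2840 and 2696 (-1.44 ± 0.21, adjusted p = 0.00127).

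Factors of nonsense-mediated decay, the pathway that removes messages with early stops, were lower in 4 of 8 cases, against 18.4% of all genes. Smg5 was at 839 and 737 normalised reads against 2770 and 2785 (-1.82 ± 0.20, adjusted p = 0.000319). Upf1, the central helicase, was at 1500 and 1339 against 2284 and 2567 and did not reach 2-fold (-0.77 ± 0.16). None of 11 SR splicing factor genes passed in either direction, although 8 were lower in RPM, where 49.0% of all genes were.

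Cell cycle and glycolysis genes had medians of 0.19 and 0.39 against 0.08 over all genes, of which 18.4% were lower and 20.0% higher. Of 16 cyclins and cell cycle kinases, 2 passed, both lower: the phosphatase gene Cdc25a (799 and 990 against 2328 and 2737) and the kinase gene Wee1 (400 and 581 against 1311 and 1425). In RPM 9 of the 16 were lower, where 49.0% of all genes were. Of 13 glycolytic enzymes 1 was higher and 1 lower, against 0 higher and 8 lower after quantile normalization, 5 lower in RPM and 3 lower without deltC12345+14 replicate 2. Hk2 was lower (2901 and 5025 against 16861 and 12799, -1.94 ± 0.30). Gapdh was higher with the authors' scaling (333987 and 251664 against 144352 and 98235, 1.28 ± 0.33, adjusted p = 0.0124), at 0.07 in RPM and at -1.31 after quantile normalization, and its call was lost without FL Dux replicate 1 (0.0945) or deltC12345+14 replicate 2 (0.0818).

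The genes with the largest folds downward by the naming rule were Ffar3, Gna15, Rnf144b, Cacng5, Sox1, Gja4, Inhbb, Mgat3, Trpv4 and Tnfrsf1a. They are expressed at low to moderate level in deltC12345+14. Ffar3 (7:30854330-30856178), a receptor for short-chain fatty acids, had 0 and 7 reads in FL Dux and 419 and 405 in deltC12345+14. Gna15, a G protein subunit, had 0 and 1 reads against 159 and 178, a ratio of 146 with a 95% exact counting interval of 26.1 to 5796. Rnf144b, a ubiquitin ligase, had 0 and 0 against 66 and 126 reads and was at least 13.8-fold lower. Cacng5, a subunit related to calcium channels, had 1 and 0 against 122 and 182 reads, and the connexin gene Gja4 had 0 and 1 against 87 and 110. Inhbb, an activin subunit, had 3 and 27 reads against 1599 and 629. The glycosyltransferase gene Mgat3 had 3 and 65 against 1630 and 1361, and the receptor gene Tnfrsf1a 1 and 6 against 288 and 261. The ion channel gene Trpv4 passed with all libraries (adjusted p = 0.0119) and not without FL Dux replicate 1 (0.0744) or deltC12345+14 replicate 2 (0.075).

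A set of DUX-responsive genes taken from a contrast of other libraries was followed through the same comparison. The fit behind that contrast also held the FL Dux libraries, which entered its filter on low values and its estimate of the spread. The set is therefore not fully independent of FL Dux. Genes called higher in the single-repeat construct C3+14 than in mCherry alone number 6391 (29.6% of 21584 tested there), and that pair shares no library with FL Dux or deltC12345+14. Of these, 5088 were tested here. Among the 5088, 1200 had at most 3 reads in both deltC12345+14 libraries, against 1352 of all 19833 genes tested. Such genes could pass the filter only through other constructs, so the count of higher genes is partly set by the filter. Of the 5088, 2995 (58.9%) were higher and 99 (1.95%) lower in FL Dux, against 20.0% and 18.4% of all genes. The median difference was 1.77, and 1804 were higher and 580 lower in RPM, where 9.88% and 49.0% of all genes were. Without deltC12345+14 replicate 2, 2547 were higher and 57 lower. Set against the mean of the deltC12345+14 libraries, the median of the set was 1.86 and 1.68 in the FL Dux replicates, against 0.10 and 0.10 for all genes, and -0.04 and 0 in the deltC12345delt14 replicates. Of the 3700 tested genes that were lower in C3+14 than in mCherry, 2082 (56.3%) were lower and 12 higher in FL Dux, with a median of -1.33, and in RPM 3431 were lower and 4 higher.

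The same difference in repeats was then read in the constructs that lack the tail. C12345delt14 against deltC12345delt14 gave 2500 genes higher (12.6%) and 1865 lower (9.40%), in all 4365 (22.0%). In RPM 1906 were higher and 5089 lower. Without C12345delt14 replicate 1, 1449 were higher and 413 lower. The total was 1862 without that library, 2831 without deltC12345delt14 replicate 1 and 2861 without deltC12345delt14 replicate 2. Of the 7616 genes called with the tail, 3692 (48.5%) were also called in the same direction without it, which is 84.6% of the genes called without the tail, and 1 was called in the opposite direction. For the 2-cell list the counts were 42 higher and 0 lower without the tail, with a median of 11.12.

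The difference of the differences was tested as an interaction, and limma called 0 genes (0.00%), with 2748 at an unadjusted p under 0.05 and a smallest adjusted p of 0.268. The edgeR quasi-likelihood test also called 0 and DESeq2 called 146 (52 higher and 94 lower). The interaction is above 0 where adding the repeats raised a gene more, or lowered it less, with the tail present. It was above 0 for 38 of the 48 2-cell genes and for 10410 of all 19833 genes tested. The 2-cell genes had a median of 1.46 and a range from -1.54 to 3.37, against a median of 0.05 over all genes. In RPM it was above 0 for 33 of the 48 and for 4281 of all genes, with medians of 0.94 and -0.51. Of the 48, 32 had at most 3 reads in both deltC12345+14 libraries and 34 in both deltC12345delt14 libraries. The interactions of such members depend on stray reads and on the 1 added before the log. With the authors' scaling, the 12 list members that share under 10% of their sequence had a median interaction of 0.14. All genes tested that share under 10% had a median of -0.04. For Nelfa the interaction was 1.30 ± 0.22, with C12345delt14 at 10942 and 11777 normalised reads and deltC12345delt14 at 1610 and 1642. For Zscan4c it was 2.53 ± 0.86, for Tmem92 -0.16 ± 0.69 and for Gm8300 -0.51 ± 0.53. Cdkn1a had -2.04 ± 0.35, and the naive factors Tbx3 and Klf4 had -2.38 ± 0.61 and -1.79 ± 0.60. None of these passed the adjusted threshold, which does not show that the repeats act alike with and without the tail.

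**Figure D5:**
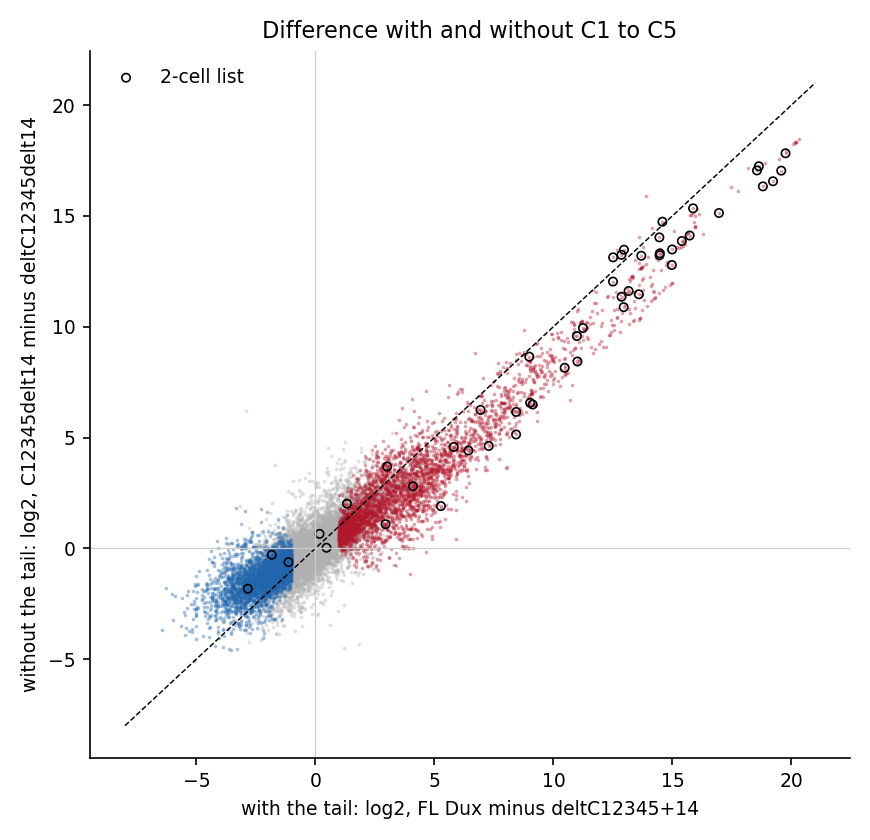
Each point is 1 gene, placed by the log2 difference that the repeats make with the tail (horizontal, FL Dux minus deltC12345+14) and without it (vertical, C12345delt14 minus deltC12345delt14), colored by the call on the horizontal axis, and open circles mark the 2-cell list. Most circles lie below the dashed line of equal differences, which is the direction of the 38 of 48 genes with an interaction above 0. Over all 19833 genes, 10410 had an interaction above 0.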

How the data were processed

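Per the labels' protocols, polyadenylated RNA of doxycycline-treated Dux-/- mouse embryonic stem cells was sequenced. The deposited values are a signal: read counts per gene that the authors divided by a size factor per library. All 443896 values of the table were whole multiples of a step (within 0.01 reads), so whole reads were recovered. The submitters' processing notes name Trim Galore 0.5.0, FastQC, DESeq2 and the build mm10. The aligner, the counting program and the handling of reads with several matches are not given in the sources used here. Symbols and coordinates are from GENCODE M21 (GRCm38), and 99.5% of 55487 identifiers had a symbol.

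The main test was limma 3.58.1 in R 4.3.3 on log2(value + 1), with a trend, over 8 libraries of 4 constructs that share an estimate of the spread. Genes that reached 10 normalised reads in 2 or more of the 8 libraries were tested, and were called at adjusted p under 0.05 and an absolute log2 difference of at least 1. Folds on this scale understate the change of low genes. A gene at 0 reads in both libraries of a construct was compared with a floor of 3 reads per library. Exact intervals and floors cover counting error only, since reads carry no molecular identifiers. Exact permutation of 2 libraries against 2 cannot reach 0.05, so the model over all genes was used. edgeR 4.0.16 and DESeq2 1.42.0 were alternatives on the recovered reads. The limma step was tested on simulated data. Replicates differed by more than sampling noise (chi-square per gene 78.9 in FL Dux and 65.5 in deltC12345+14), and both were kept.

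Named genes are list members, up to 10 called genes with a symbol in each direction by fold whose libraries do not overlap and whose larger group mean reaches 50 (Gm, Rik and -ps symbols left out), the top 3 with any name, and the Dux relatives. The members of the comparison and all lists were chosen with earlier results of these data known. RPM was computed from the recovered reads as an added alternative. Some list members are counted but not reported here by name.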

Additional observations from a re-analysis of the deposited data

How the results depend on the processing

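Leaving out 1 FL Dux or deltC12345+14 library gave from 5730 to 7764 genes that differ, from 2926 to 4052 higher and from 2682 to 3927 lower. In RPM, an alternative added after the data were seen, 11672 genes differed (1960 higher, 9712 lower), 1804 genes of the C3+14 set were higher and 6995 genes differed between C12345delt14 and deltC12345delt14. Without genes of shared sequence, where fewer genes are tested, 4998 differed, 1916 were higher, 8 members of the 2-cell list were higher and 1389 genes of the C3+14 set were higher. The interaction gave 146 genes with DESeq2 and 1 with edgeR and library kind (high or low share of reads on highly repeated sequence) as a term, and the cause was not tested. Leaving out 1 library of the constructs without the tail, which was added later, gave from 1862 to 4145 genes that differ between C12345delt14 and deltC12345delt14, and over every left-out library of the 8 the range was 1862 to 4606.

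Replicate numbers did not pair the libraries: deviations of same-numbered libraries correlated over genes at -0.02 between FL Dux and deltC12345+14 and at 0.135 between FL Dux and C12345delt14, and at -0.574 between deltC12345+14 and deltC12345delt14, where the library kinds are crossed, with the other pairs of constructs from -0.0675 to 0.0713. With the replicate number as a replicate block, 7354 genes differed, and the interaction gave 0.

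Of the comparisons of 111 named genes with 21 alternatives, 2215 kept direction and call, 55 lost the call, 10 gained it and 11 reversed. Under quantile normalization the reversed values were -0.69 for Pou5f1, -0.0706 for Asns, -0.24 for Trim28, -1.31 for Gapdh and -1.07 for Hspa8. In RPM they were -0.69 for Pou5f1, -0.0633 for Asns, -0.0660 for Trim28, -0.0925 for Krt8, -1.04 for Pramef8 and -0.75 for Rnf167. The cause of each of these reversals was not tested. Depth limits what a count of 0 means: a floor of 3 reads per library is 2.13 normalised reads on average in deltC12345+14 and 4.95 in FL Dux.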

Other observations

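The families below were chosen after their values were seen and carry no test of the family. Counts cover the members that passed the filter on low values, and a member at 0 in deltC12345+14 could pass it only through constructs where it is present, so a count of higher members is partly set by the filter. Over all genes tested 20.0% were higher and 18.4% lower, and in RPM 9.88% were higher and 49.0% lower. Of 53 Hist1 genes tested, which include the 10 tested list members above, 52 were higher in FL Dux than in deltC12345+14, 49 of them in RPM, and 48 share sequence with another gene. Olfactory receptor genes and pseudogenes, which are normally silent outside sensory neurons and germ cells, were higher in 43 of the 61 tested and lower in 7, and 36 of the 61 had at most 3 reads in both deltC12345+14 libraries. Vomeronasal receptor genes were higher in 22 of the 36 tested and lower in 3, with 17 of the 36 at most at 3 reads in both deltC12345+14 libraries. The 8 Speer genes tested, of a family otherwise known from testis, had at most 3 reads there, so they passed the filter through the constructs with repeats.

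The Kruppel-like factor genes were lower in 11 of 15 cases and higher in none, with a median of -2.27. All 15 were lower in RPM, where 49.0% of all genes were. Klf10 differed by -3.23 and Klf9 by -2.66, beside Klf2 and Klf4 of the pluripotency list. Among zinc finger genes of the Zbtb family 24 of 41 were lower and 1 higher.

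Processed pseudogenes were higher in 945 of 2403 cases and lower in 62, and in RPM 328 were higher and 262 lower. Without deltC12345+14 replicate 2, 557 were higher and 34 lower, and 2056 of the 2403 share sequence with another gene. Genes and pseudogenes of large-subunit ribosomal proteins were higher in 121 of 163 cases with the authors' scaling and in 9 in RPM, without deltC12345+14 replicate 2 in 86. Of these 163, 149 share sequence with another gene.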
